A study of Mus musculus with 24 samples.

Results

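The neuromuscular junction assembly genes are 7 genes, Ache, Agrn, Musk, Dok7, Rapsn, Lrp4 and Colq, whose products build and maintain the contact between motor nerve and muscle fibre. They were taken as every probe that carried one of these symbols in the platform annotation, which gave 11 of the 25697 probes. Of the 7 genes, 6 passed the detection filter and were among the 8945 genes tested, and Colq did not. Expression was measured in gastrocnemius muscle of male mice on 24 Illumina bead arrays, 1 array per mouse sample.

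The wild-type group held 4 C57Bl/10ScSnJ mice, for which the labels name no injection and no running. The other 4 groups held 5 mdx mice each, which carry a spontaneous mutation that removes the muscle protein dystrophin from birth. All mdx mice were injected into the abdominal cavity once a week, 2 groups with PBS and 2 with sActRIIB-Fc at 5 mg/kg. One group of each injection also had running wheels, which the mice used at will, and the treatments lasted 7 weeks. sActRIIB-Fc is the soluble ligand-binding part of activin receptor type IIB joined to an antibody Fc tail, and it traps myostatin and related growth factors. Age is labelled as 6 to 7 weeks in all groups, without saying at which point of the experiment. Since PBS was named only for mdx mice, genotype and injection cannot be told apart in any comparison with wild type.

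At the junction, agrin released by the motor axon binds Lrp4 on the muscle surface, and Lrp4 then activates the receptor tyrosine kinase MuSK. Dok-7 is the cytoplasmic adaptor that MuSK needs to become fully active, and rapsyn is the scaffold that gathers acetylcholine receptors beneath the nerve ending. Acetylcholinesterase, encoded by Ache, ends each signal by breaking down acetylcholine, and its collagen tail ColQ anchors it in the synaptic basal lamina. Junctions of mdx muscle are known to become fragmented as fibres degenerate and regenerate.

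The arrays of a group correlated with each other at r = 0.953 to 0.993 across the tested genes. Between 10404 and 11971 probes were detected per array. Both Dmd probes were detected on 0 of 24 arrays, so the gene that carries the mdx mutation could not be used to check the labels. Hepatocyte marker transcripts stood apart on some arrays. Of 9 listed markers 7 were tested, and Alb and Fgb were detected on 0 arrays. The mean of the 7 tested hepatocyte markers ran from 4.74 to 11.47 on the log2 scale, and the 4 arrays richest in them were wild-type replicate 2, the running replicate 2 of PBS-injected mdx mice, and replicates 1 and 2 of the combined treatment. Wild-type replicate 2 enters each comparison with wild type. Without these 4 arrays, Ache and Agrn were still the 2 members called in each mdx group against wild type, and no member was called among the mdx groups. With all 24 arrays the comparisons with wild type called 34.7% to 39.3% of all tested genes. The share without the 4 arrays is not given here.

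The upstream stretches of the genes that changed, Ache and Agrn, are shown first because these were the 2 members called against wild type. Sequences are from RefSeq on GRCm38.p6 and are read 5′ to 3′ on the strand of the gene. The Ache stretch spans chr5:137288004-137288246 on the plus strand and ends at the annotated gene, chr5:137288247-137294466. The Agrn stretch spans chr4:156197534-156197738 on the minus strand and ends at the annotated gene, chr4:156165290-156197533. The sequence source lists 2 starts for Agrn. The other start had too few bases outside the annotated gene and is not shown. Capitals mark every match, on either strand, to the E-box CANNTG, the N-box CCGGAA or the GC-box GGGCGG. The E-box is a general core bound by myogenic and by other transcription factors. The N-box is the ETS-factor motif known from synaptic genes, and the GC-box is bound by Sp1.
Ache: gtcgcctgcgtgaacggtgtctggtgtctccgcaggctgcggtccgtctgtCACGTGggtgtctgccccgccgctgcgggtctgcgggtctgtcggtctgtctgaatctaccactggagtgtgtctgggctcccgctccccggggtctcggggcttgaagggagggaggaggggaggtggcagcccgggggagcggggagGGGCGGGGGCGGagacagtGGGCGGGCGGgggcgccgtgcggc
Agrn: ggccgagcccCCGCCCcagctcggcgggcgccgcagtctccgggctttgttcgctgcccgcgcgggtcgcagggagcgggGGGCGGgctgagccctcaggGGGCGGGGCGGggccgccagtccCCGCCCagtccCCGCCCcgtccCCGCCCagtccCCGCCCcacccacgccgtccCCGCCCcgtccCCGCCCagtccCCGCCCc
The Ache stretch held 1 E-box, 0 N-boxes and 4 GC-box matches, some of which overlap. The Agrn stretch held 0 E-boxes, 0 N-boxes and 11 GC-box matches, again with overlaps. Among 32851 promoters cut to the length of the Ache stretch, 65.4% held an E-box, 11.5% an N-box and 31.8% a GC-box. At the length of the Agrn stretch the shares were 59.8%, 8.44% and 25.6%. The matches describe these letters only.

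Levels below are log2 intensities after background correction and quantile normalization, and differences are log2 differences ± standard error from limma. Adjusted p-values are from limma, corrected over all 8945 genes, with 0.05 as the limit. Levels of different probes are not compared with each other. All RNA came from whole muscle, so a change in the number of cells of a type and a change in RNA per cell cannot be told apart.

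Between PBS-injected mdx and wild-type muscle, Ache and Agrn rose and no member fell. Ache was 2-fold and Agrn 1.47-fold higher, while Musk, Dok7, Rapsn and Lrp4 did not pass the test. The 2 called members were 2 of 6, in a comparison that called 37.7% of all tested genes, 19.3% as higher and 18.5% as lower. The share among the members was thus near that of the array as a whole. The median difference of the 6 members was -0.01, against -0.05 over all tested genes.

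**Figure D1:**
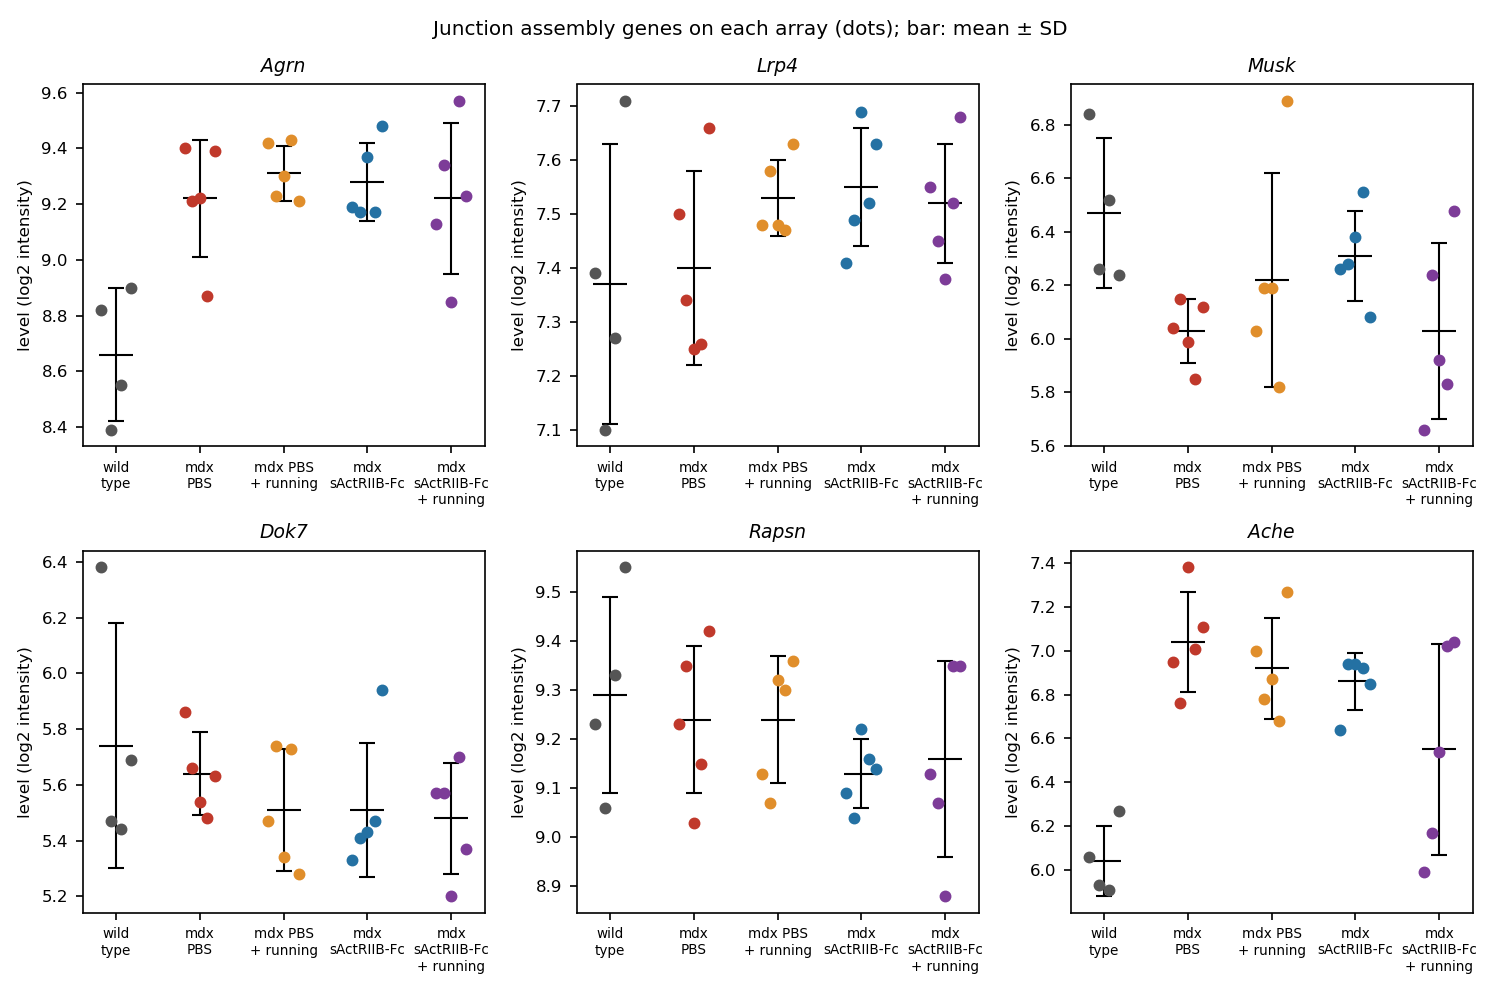
Each panel shows 1 tested gene, with the log2 intensity on the vertical axis and the 5 groups on the horizontal axis. Dots are arrays, and the bars give the mean and SD. For Ache the 5 PBS-injected mdx arrays sit between 6.76 and 7.38, above all 4 wild-type arrays, and the combined-treatment arrays spread from 5.99 to 7.04.

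Agrn encodes the nerve- and muscle-derived proteoglycan that starts junction assembly. Its probe was detected on all 24 arrays, and which agrin splice forms it reads is not given in the sources used here. Wild-type levels were 8.82, 8.39, 8.55 and 8.90 (8.66 ± 0.24, SD, n = 4). The PBS-injected mdx arrays read 9.40, 9.21, 9.22, 8.87 and 9.39 (9.22 ± 0.21, SD, n = 5). Of these, 4 lay above every wild-type array and replicate 4 fell within the wild-type range. The difference was 0.55 ± 0.13 (95% confidence interval 0.28 to 0.83, limma adjusted p = 0.002). Without the 4 hepatocyte-rich arrays it was 0.46 (limma adjusted p = 0.02).

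The 3 treated mdx groups held Agrn at much the same level. Running mice read 9.42, 9.23, 9.30, 9.43 and 9.21 (9.31 ± 0.10, SD, n = 5), and mice given sActRIIB-Fc read 9.19, 9.17, 9.37, 9.17 and 9.48 (9.28 ± 0.14, SD, n = 5). Every array of both groups lay above every wild-type array, which 15.1% of tested genes showed with running and 17.4% with sActRIIB-Fc. With the combined treatment the arrays read 9.13, 9.34, 8.85, 9.57 and 9.23 (9.22 ± 0.27, SD, n = 5), and 4 of the 5 lay above all wild-type arrays. The differences from wild type were 0.65 with running (limma adjusted p = 0.00052), 0.61 with sActRIIB-Fc (limma adjusted p = 0.00082) and 0.56 with both (limma adjusted p = 0.0018). With the 4 hepatocyte-rich arrays left out they were 0.58 (limma adjusted p = 0.0075), 0.52 (limma adjusted p = 0.0095) and 0.46 (limma adjusted p = 0.04). Of all tested genes, these comparisons called 34.7%, 38.8% and 39.3%. The 3 differences and that of PBS-injected mice share the same 4 wild-type arrays.

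Lrp4 encodes the agrin receptor on the muscle surface. Its wild-type levels were 7.39, 7.10, 7.27 and 7.71 (7.37 ± 0.26, SD, n = 4). PBS-injected mdx arrays lay between 7.25 and 7.66 (7.40 ± 0.18, SD, n = 5), inside the wild-type range. The difference was 0.04 ± 0.11 (95% confidence interval -0.19 to 0.26, limma adjusted p = 0.82). The other mdx groups averaged 7.53 ± 0.07 with running, 7.55 ± 0.11 with sActRIIB-Fc and 7.52 ± 0.11 with both (SD, n = 5 each), again within the wild-type range. None of these passed the test against wild type, with differences of 0.16, 0.18 and 0.15. Without the 4 hepatocyte-rich arrays the 4 differences of Lrp4 lay between -0.05 and 0.09, the lowest in PBS-injected mice, and none passed. When the arrays were instead scaled to equal medians, Lrp4 passed in all 3, at 0.41 with running (limma adjusted p = 0.0083), 0.44 with sActRIIB-Fc (limma adjusted p = 0.0048) and 0.38 with both (limma adjusted p = 0.014). Without wild-type replicate 4, the highest of that group, it also passed with running (0.28, limma adjusted p = 0.049) and with sActRIIB-Fc (0.30, limma adjusted p = 0.031).

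Musk encodes the kinase at the centre of the pathway. Of its 2 probes, the one that names NM_001037129 was detected on all 24 arrays. The other, which names NM_010944, was detected on 2 of 24 arrays and was not tested. Wild-type arrays read 6.84, 6.26, 6.52 and 6.24 (6.47 ± 0.28, SD, n = 4), and PBS-injected mdx arrays read 6.04, 6.15, 5.99, 5.85 and 6.12 (6.03 ± 0.12, SD, n = 5). All 5 mdx arrays lay below all 4 wild-type arrays, a separation downward that 15.1% of tested genes showed. The difference of -0.44 ± 0.18 (95% confidence interval -0.81 to -0.07) missed the limit at a limma adjusted p of 0.056.

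The Musk value stood close to the limit and crossed it under several other settings. It passed with array weights (-0.47, limma adjusted p = 0.013), with the hepatocyte mean as a covariate (-0.55, limma adjusted p = 0.027), when only these groups entered the fit (-0.44, limma adjusted p = 0.02) and with the replicate numbers as a block (-0.50, limma adjusted p = 0.025). It also passed, at limma adjusted p-values of 0.023 to 0.048, without wild-type replicate 2 or 4, running replicate 4 or 5, or combined-treatment replicate 1 or 5. When the 4 hepatocyte-rich arrays were dropped, it was -0.51 and missed the limit (limma adjusted p = 0.051). With arrays scaled to equal medians it was -0.19, with a limma adjusted p of 0.49. Under 1 other scaling, to equal medians of the kept probes, it was -0.45 and passed (limma adjusted p = 0.038). Running mice read 6.03, 6.19, 6.19, 5.82 and 6.89 (6.22 ± 0.40, SD, n = 5), where replicate 5 was above every wild-type array. Mice given sActRIIB-Fc read 6.26, 6.28, 6.38, 6.55 and 6.08 (6.31 ± 0.17, SD, n = 5), and those given both read 5.66, 6.24, 5.92, 5.83 and 6.48 (6.03 ± 0.33, SD, n = 5). All 3 groups overlapped wild type. Their differences from wild type were -0.24 (limma adjusted p = 0.3), -0.15 (limma adjusted p = 0.52) and -0.44 (limma adjusted p = 0.052), and the sign of the first and second turned with arrays scaled to equal medians, to 0.03 and 0.12. Without running replicate 5 the running difference was -0.41 and passed (limma adjusted p = 0.046). The combined-treatment difference passed, at limma adjusted p-values of 0.016 to 0.045, without wild-type replicate 2 or 4, running replicate 4 or 5, or combined-treatment replicate 2 or 5. It was -0.20 with equal medians (limma adjusted p = 0.46) and -0.44 with equal medians of the kept probes, where it passed (limma adjusted p = 0.041).

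Dok7, the adaptor of MuSK, was read by a dim probe that was detected on 22 of 24 arrays and on only 2 of the 4 wild-type arrays. Wild-type levels were 6.38, 5.47, 5.44 and 5.69 (5.74 ± 0.44, SD, n = 4), with replicate 1 above the other 3. PBS-injected mdx arrays read 5.86, 5.66, 5.54, 5.48 and 5.63 (5.64 ± 0.15, SD, n = 5), within the wild-type range. The difference was -0.11 ± 0.16 (95% confidence interval -0.45 to 0.23, limma adjusted p = 0.64), and without wild-type replicate 1 it was 0.10. The treated mdx groups spanned 5.28 to 5.74 with running, 5.33 to 5.94 with sActRIIB-Fc and 5.20 to 5.70 with both. Their differences from wild type were -0.23, -0.23 and -0.26, none past the limit. They rested on wild-type replicate 1, without which they were -0.02, -0.02 and -0.05. Without the 4 hepatocyte-rich arrays the difference was -0.20 in PBS-injected mice and -0.38, -0.32 and -0.41 in the treated groups, none past the limit.

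Rapsn, the receptor scaffold, was read by 3 probes, all detected on every array. On the brightest, wild-type arrays read 9.23, 9.06, 9.33 and 9.55 (9.29 ± 0.20, SD, n = 4). PBS-injected mdx arrays lay between 9.03 and 9.42 (9.24 ± 0.15, SD, n = 5). The ranges overlapped almost fully, and the difference was -0.06 ± 0.11 (95% confidence interval -0.29 to 0.17, limma adjusted p = 0.72). The other probes differed by -0.25 ± 0.12 and -0.16 ± 0.17, both in the same direction and neither past the limit over the 12623 kept probes (limma adjusted p = 0.11 and 0.48), of which 36% were called. With running, sActRIIB-Fc and both, the brightest probe averaged 9.24 ± 0.13, 9.13 ± 0.07 and 9.16 ± 0.20 (SD, n = 5 each). None of these differed from wild type past the limit, but under 1 other scaling, to equal medians of the kept probes, the sActRIIB-Fc difference of -0.16 became -0.32 (limma adjusted p = 0.029). With the 4 hepatocyte-rich arrays left out the 4 differences on this probe ran from -0.24 to -0.09, and none passed.

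Ache, the enzyme that removes acetylcholine from the cleft, differed most from wild type among the members in PBS-injected mdx mice. Wild-type arrays read 6.06, 5.93, 5.91 and 6.27 (6.04 ± 0.16, SD, n = 4). PBS-injected mdx arrays read 6.95, 6.76, 7.38, 7.01 and 7.11 (7.04 ± 0.23, SD, n = 5). All 5 lay above all 4 wild-type arrays, as they did for 17.2% of tested genes. The difference was 1.00 ± 0.18 (95% confidence interval 0.63 to 1.37, limma adjusted p = 9.4e-05). Without background correction, which shrinks the differences of dim probes, it was 0.63 with a limma adjusted p of 0.00016. Without the 4 hepatocyte-rich arrays it was 0.96 (limma adjusted p = 6.3e-05).

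Running mice read 7.00, 6.78, 6.87, 6.68 and 7.27 for Ache (6.92 ± 0.23, SD, n = 5). Mice given sActRIIB-Fc read 6.64, 6.94, 6.94, 6.92 and 6.85 (6.86 ± 0.13, SD, n = 5). Again every array of both groups lay above the wild-type arrays, as for 15.1% of tested genes with running and 17.4% with sActRIIB-Fc. The Ache differences were 0.88 (limma adjusted p = 0.00045) and 0.82 (limma adjusted p = 0.00079). Without background correction they were 0.54 and 0.50, still past the limit, and without the 4 hepatocyte-rich arrays 0.87 and 0.78. In each of the 2 comparisons Ache and Agrn were the only members called, where 34.7% and 38.8% of all tested genes were called.

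The combined treatment was the least uniform for Ache. Its arrays read 5.99, 6.17, 6.54, 7.02 and 7.04 (6.55 ± 0.48, SD, n = 5), so that replicates 1 and 2 lay among the wild-type arrays and the other 3 above them. The difference from wild type was 0.51 ± 0.18, or 1.42-fold (95% confidence interval 0.14 to 0.88, limma adjusted p = 0.025). Ache and Agrn were again the called members, 2 of 6, in a comparison that called 39.3% of all tested genes.

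The 2 combined-treatment arrays with low Ache were also the 2 rich in hepatocyte transcripts. Their hepatocyte means were 10.01 and 9.38, against 4.93, 5.34 and 4.95 on replicates 3 to 5. Replicate 3, with the lowest of these means, read 6.54 for Ache. Raw median signals of replicates 1 to 5 were 98.4, 89.2, 89.1, 77.3 and 76, falling as Ache rose. What set the arrays with low Ache apart was not tested. The Ache difference from wild type without the 4 hepatocyte-rich arrays of the series was 0.79 (limma adjusted p = 0.0017). Without background correction it was 0.31 (limma adjusted p = 0.036). The call was lost when only these groups entered the fit (0.51, limma adjusted p = 0.11), with array weights (0.35, limma adjusted p = 0.11), and without wild-type replicate 2 (0.47, limma adjusted p = 0.064), wild-type replicate 3 (0.47, limma adjusted p = 0.069), combined-treatment replicate 4 (0.39, limma adjusted p = 0.071) or replicate 5 (0.39, limma adjusted p = 0.079).

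**Figure D2:**
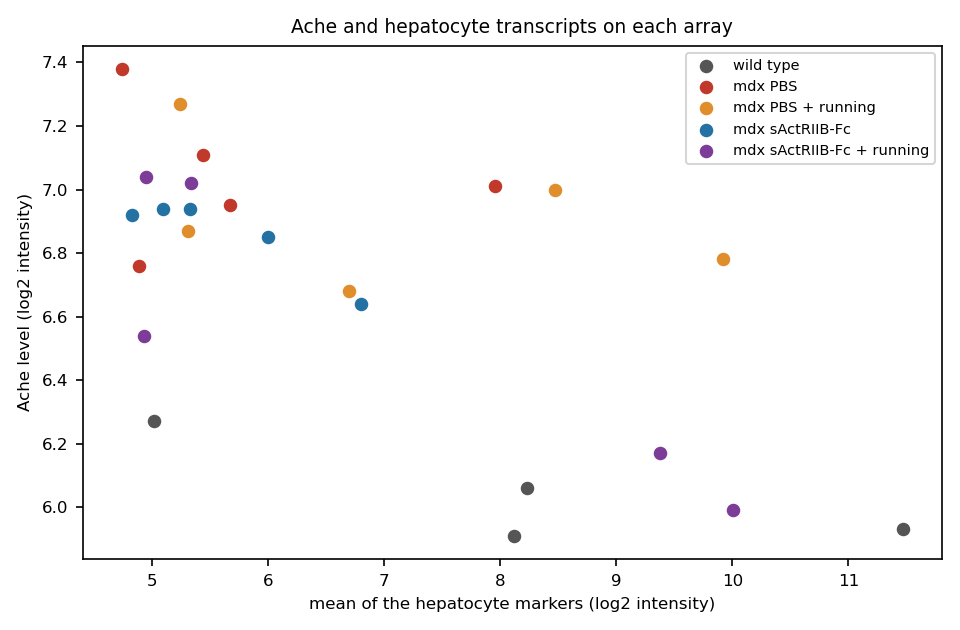
Each point is 1 array, with the mean log2 intensity of the hepatocyte markers on the horizontal axis, the log2 intensity of Ache on the vertical axis and colours for the 5 groups. Combined-treatment replicates 1 and 2 lie at hepatocyte means of 10.01 and 9.38 with Ache at 5.99 and 6.17, while PBS-with-running replicate 2 lies at 9.92 with Ache at 6.78.

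Colq, the collagen tail of acetylcholinesterase, could not be followed. Its 2 probes were detected on 0 of 24 arrays, with detection p-values of 0.093 to 0.83 and 0.15 to 0.64. Their raw signals, from 59.4 to 90.9, were not well above background in any group, and no difference is given.

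**Figure D3:**
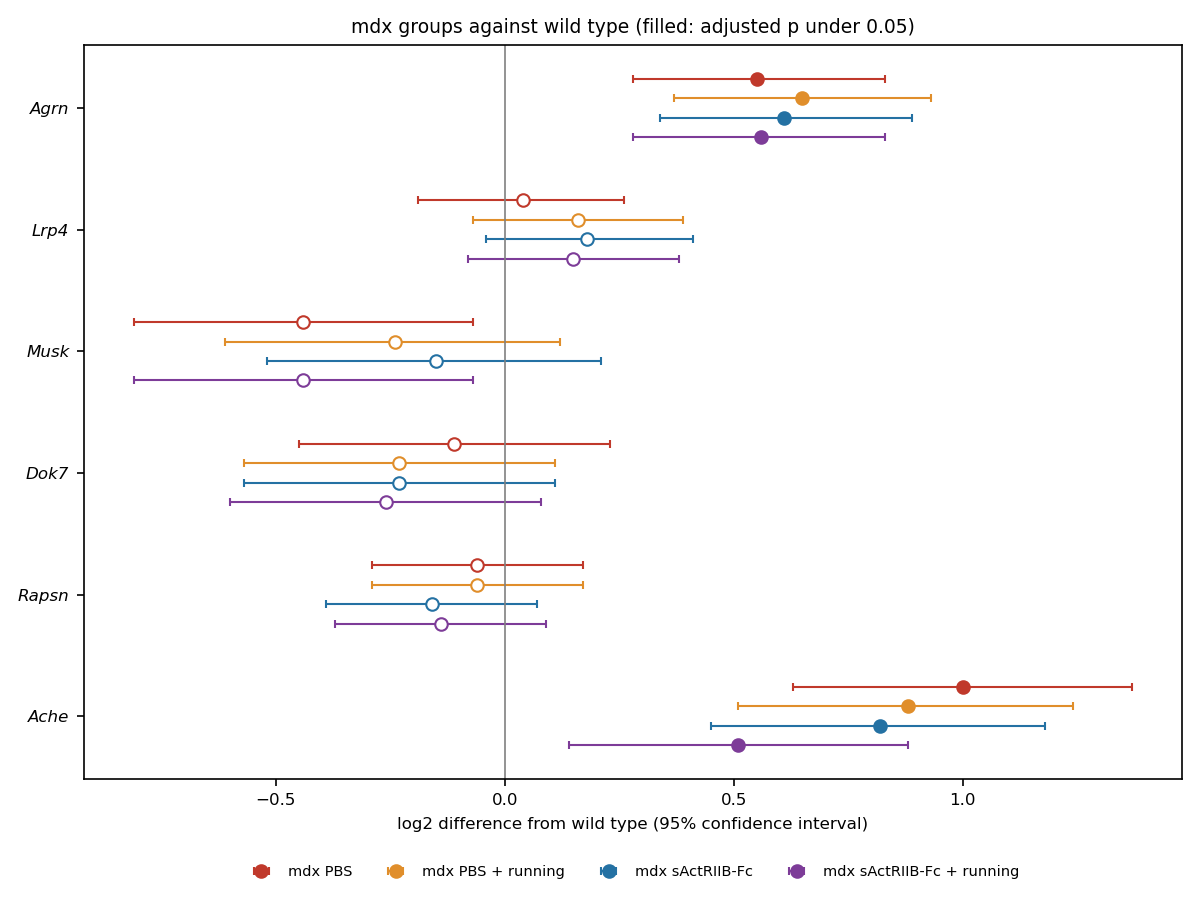
The horizontal axis gives the log2 difference of each mdx group from wild type, with its 95% confidence interval, for the 6 tested genes. Filled points passed an adjusted p of 0.05. Agrn is filled in all 4 groups at 0.55 to 0.65, Ache in all 4 at 0.51 to 1.00, and no other gene is filled.

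Among the 4 mdx groups no member passed the test in any comparison. Each treated group was compared with PBS alone, and the combined treatment with each single one. Runners were also compared with non-runners and sActRIIB-Fc with PBS across all 20 mdx arrays, and the difference between the 2 effects of running, with sActRIIB-Fc and without, was tested as an interaction. The comparisons called few genes of any kind. Running against PBS called 0.0112% of tested genes, which was 1 gene, the water channel gene Aqp4, and so did running averaged over both injections. The other 6 called 0%, although 282 to 741 genes had an unadjusted limma p under 0.05.

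Ache came nearest. Its unadjusted p with limma was under 0.05 in 3 of the 8 comparisons, and no other member had one. These were sActRIIB-Fc averaged over both activities, at -0.27 ± 0.12 (95% confidence interval -0.52 to -0.03, adjusted p = 1), both treatments against PBS alone, at -0.49 ± 0.17 (95% confidence interval -0.83 to -0.15, adjusted p = 0.81), and both against running with PBS, at -0.37 ± 0.17 (95% confidence interval -0.71 to -0.02, adjusted p = 0.9). Without the 4 hepatocyte-rich arrays the 3 values were -0.13, -0.18 and -0.09. Running averaged over both injections gave -0.22 ± 0.12 (95% confidence interval -0.46 to 0.03, adjusted p = 0.75), and -0.04 without those arrays. The Ache interaction of -0.18 ± 0.24 became 0.10 without them, and neither passed. The arrays left out include combined-treatment replicates 1 and 2, the lowest of that group for Ache (5.99 and 6.17). Over all other settings Ache with both treatments against PBS alone ranged from -0.69 to -0.18. The lowest limma adjusted p there was 0.064. For sActRIIB-Fc averaged over both activities the range was -0.35 to -0.13, also never past the limit.

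Musk had the largest interaction in size among the members, at -0.48 ± 0.24 (95% confidence interval -0.97 to 0.01, limma adjusted p = 0.93), and -0.44 without the 4 hepatocyte-rich arrays. Its level was 0.28 ± 0.17 higher with sActRIIB-Fc than with PBS and 0.29 ± 0.17 lower with both treatments than with sActRIIB-Fc alone, neither past the limit. The groups overlapped in both cases. For Agrn the averaged differences were 0.02 ± 0.09 for running and -0.02 ± 0.09 for sActRIIB-Fc, with confidence intervals of -0.16 to 0.20 and -0.20 to 0.17. For Lrp4, Dok7 and Rapsn the averaged differences lay between -0.09 and 0.07, and their confidence intervals between -0.30 and 0.22.

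**Figure D4:**
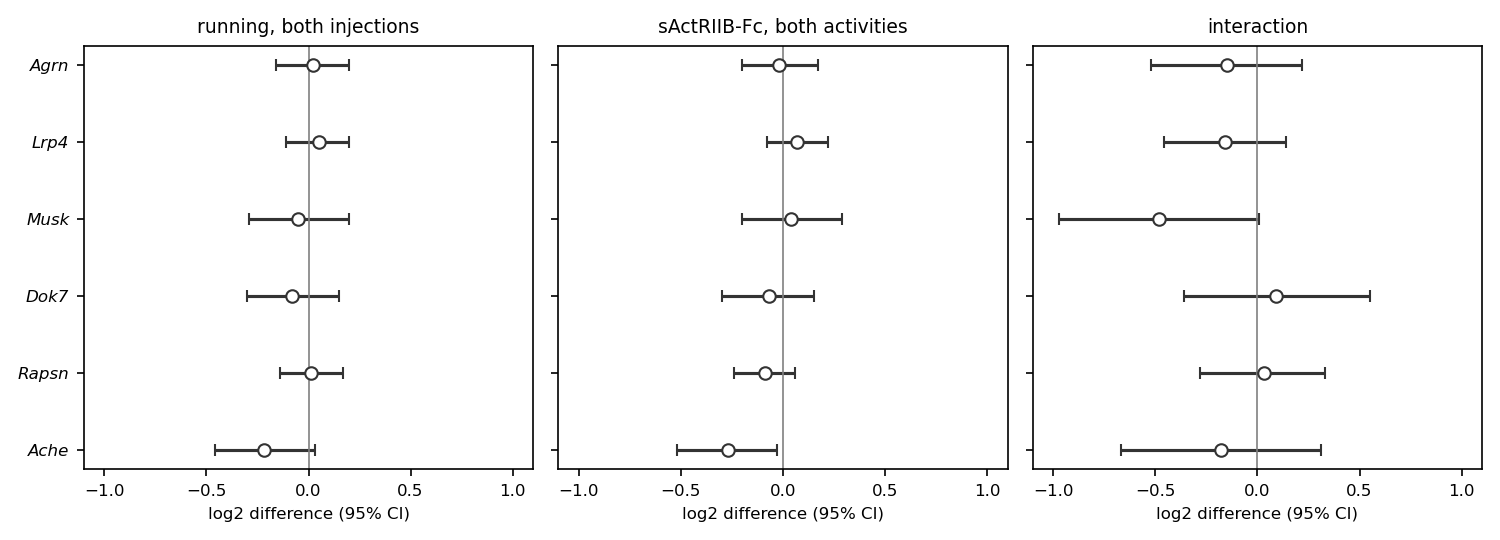
The panels give, for each of the 6 tested genes, the log2 difference with its 95% confidence interval for running averaged over both injections, for sActRIIB-Fc averaged over both activities, and for their interaction. All points are open because none passed an adjusted p of 0.05, and the interval of Ache for sActRIIB-Fc runs from -0.52 to -0.03.

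Other genes of the junction were counted in 5 lists by role, each compared between PBS-injected mdx and wild-type muscle. Of all tested genes, 19.3% were called higher and 18.5% lower in this comparison. Of the 5 lists, the acetylcholine receptor subunits had the highest median difference, 1.88, against -0.05 over all tested genes. Of its 4 tested genes 3 were higher and none lower. Chrna1, the subunit that binds acetylcholine, rose by 2.29 ± 0.22 (limma adjusted p = 3.9e-08), from 8.11 to 8.29 in wild type to 10.38 to 10.70. Chrnb1 rose by 1.47 ± 0.12 (limma adjusted p = 3.2e-09). Chrng, the subunit of the fetal receptor that innervated adult fibres replace, was detected on 0 of 4 wild-type and 5 of 5 mdx arrays, and its level was at least 11.6-fold higher (limma adjusted p = 6e-09). Chrne, its adult counterpart, differed by 0.25 ± 0.17 and did not pass (limma adjusted p = 0.26), but did with arrays scaled to equal medians (0.44, limma adjusted p = 0.04). Chrnd was detected on 0 arrays.

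The list of synaptic basal lamina and agrin-processing genes had 16 genes, of which 9 were tested. Of these 8 were higher and none lower, against 19.3% and 18.5% of all tested genes. The median of the 9 was 1.03. Col4a5, among the 8, was detected on 0 of 4 wild-type and 2 of 5 PBS-injected mdx arrays. It passed the filter only through mdx arrays, and it missed the limit with arrays scaled to equal medians (0.45, limma adjusted p = 0.059). Bgn, encoding the matrix proteoglycan biglycan that binds MuSK, rose by 1.89 ± 0.17 (limma adjusted p = 7.9e-09). Nid2, encoding nidogen-2, rose by 1.20 ± 0.14 (limma adjusted p = 3.9e-07). Lamc1, encoding the laminin γ chain found throughout muscle basal lamina, rose by 1.05 ± 0.13 (limma adjusted p = 1.7e-06). Under either scaling to equal medians 7 were higher and none lower. Of all 8945 tested genes, scaling to equal medians called 2203 higher and 861 lower. Scaling to equal medians of the kept probes called 1345 higher and 2881 lower. Several of these genes serve the whole fibre surface and other cells, not the synapse alone.

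Of 24 listed intracellular partners of MuSK and rapsyn 18 were tested, 3 rose and 1 fell, against 19.3% and 18.5% of all tested genes, with a median of -0.03. Src, a kinase that phosphorylates acetylcholine receptors, was detected on no wild-type array and was at least 1.43-fold higher (limma adjusted p = 0.00047). Hsp90b1, a chaperone of the endoplasmic reticulum, rose by 0.62 ± 0.15 (limma adjusted p = 0.0021), and Actn2, the actin crosslinker of the Z-disc, rose by 0.53 ± 0.15 (limma adjusted p = 0.0093). Pdzrn3, a ubiquitin ligase that promotes MuSK breakdown, fell by 0.41 ± 0.16 (a log2 difference of -0.41, limma adjusted p = 0.046). This split depended on the scaling. With arrays scaled to equal medians 4 were higher and 1 lower, where 2203 of all 8945 tested genes were higher and 861 lower. With equal medians of the kept probes 2 were higher and 6 lower, where 1345 of all tested genes were higher and 2881 lower. Under that second scaling Actn2 was at 0.11 and no longer passed (limma adjusted p = 0.57). With the 4 hepatocyte-rich arrays left out the counts were again 3 and 1, but Pdzrn3 missed the limit (limma adjusted p = 0.09) and Gab1, a docking protein named here after its value was seen, passed at -0.36 (limma adjusted p = 0.041).

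Of 12 genes of synaptic transcription and neuregulin signalling, 6 were tested and 2 rose, with a median of 0.09. The share called was near the 37.7% of all tested genes called in either direction. Etv4, an ETS transcription factor, was detected on no wild-type array and rose at least 1.37-fold (limma adjusted p = 2.7e-05). Prkar1a, a regulatory subunit of protein kinase A, rose by 0.57 ± 0.11 (limma adjusted p = 0.00021). Its difference with equal medians of the kept probes was 0.24 and did not pass (limma adjusted p = 0.077). Of 13 genes of the postsynaptic cytoskeleton and utrophin complex, 9 were tested. Of these 4 rose and 2 fell, against 19.3% and 18.5% of all tested genes, with a median of 0.06. Ncam1, a cell adhesion molecule also found on regenerating fibres, rose by 2.24 ± 0.20 (limma adjusted p = 8.3e-09). Nes, encoding the intermediate filament nestin, rose by 1.16 ± 0.14 (limma adjusted p = 1.1e-06), and Dtna, encoding α-dystrobrevin, rose by 0.49 ± 0.10 (limma adjusted p = 7e-04). Dtnb fell by 0.53 ± 0.12 (a log2 difference of -0.53, limma adjusted p = 0.00076) and Utrn by 0.46 ± 0.17 (a log2 difference of -0.46, limma adjusted p = 0.034). With arrays scaled to equal medians Utrn was at -0.30 and did not pass (limma adjusted p = 0.2). In PBS-injected mdx mice Dtnb was detected on only 1 of 5 arrays and Utrn on 2 of 5, so the sizes of these differences are uncertain. Without the 4 hepatocyte-rich arrays 3 genes of this list rose in place of 4, Cav3 having missed the limit. The counts of the receptor, basal lamina and transcription lists were the same without them.

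**Figure D5:**
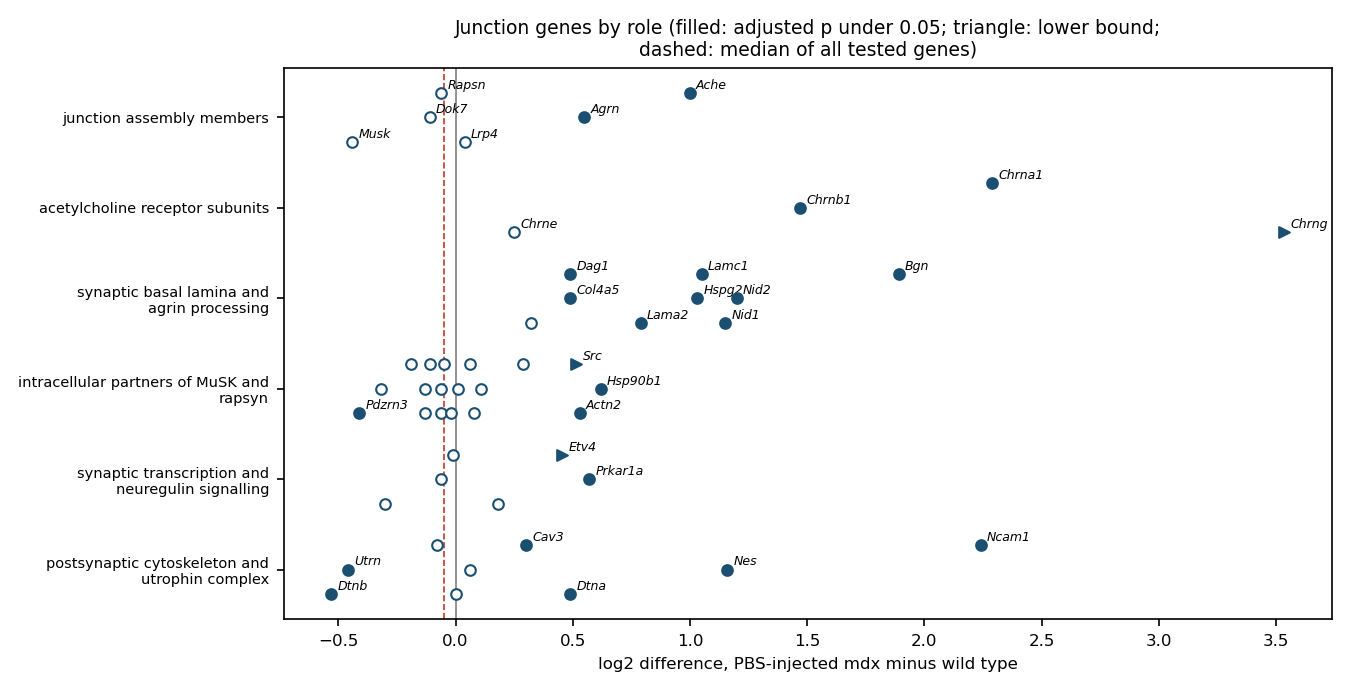
The horizontal axis gives the log2 difference between PBS-injected mdx and wild-type muscle for the tested junction genes, placed by role on the vertical axis. Filled symbols passed an adjusted p of 0.05, triangles are lower bounds for genes undetected in wild type, and the dashed line is the median of all tested genes, -0.05. Chrna1 at 2.29, Ncam1 at 2.24 and the bound of Chrng lie furthest to the right, and Musk, Dtnb, Utrn and Pdzrn3 furthest to the left.

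Against wild type, the acetylcholine receptor list gave 3 higher and none lower in each of the treated mdx groups too, with medians of 1.84 with running, 1.96 with sActRIIB-Fc and 1.82 with both. The basal lamina list gave 7, 7 and 6 higher of 9. These comparisons called 34.7%, 38.8% and 39.3% of all tested genes in either direction. Among the mdx groups no gene of the 5 lists was called by limma in any comparison.

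Markers of other cells differed too when PBS-injected mdx muscle was set against wild type, beside the higher Ache and Agrn. Of all tested genes, that comparison called 19.3% higher and 18.5% lower. Of 9 tested macrophage markers 8 were higher, and their mean level was 6.67 to 7.09 in wild type and 9.02 to 9.76 in mdx. All 6 tested markers of regenerating muscle were higher, with means of 6.04 to 6.44 against 9.02 to 9.72. Chrng, already counted with the receptor subunits, was among these markers. Chrng and Mymk here, and Ctss and Trem2 of the macrophage list, were detected on 0 of 4 wild-type arrays. These genes passed the filter only through mdx arrays, and their wild-type readings in the means are background. Myod1 and the macrophage marker Adgre1 were detected on 1 of 4 wild-type arrays. All 7 tested fibroblast markers were higher, with means of 8.53 to 8.91 against 9.82 to 10.30. Of 5 tested Schwann cell markers 4 were lower, with means of 7.63 to 8.00 against 7.10 to 7.22. With arrays scaled to equal medians 2 of the 5 were lower, where 861 of all 8945 tested genes were lower. Mbp, a myelin protein gene, fell most, by 1.36 ± 0.19 (a log2 difference of -1.36, limma adjusted p = 4.1e-06). Of 9 neuron and motor axon markers only 2 were tested, 1 higher (Uchl1, 0.87) and 1 lower (Stmn2, -0.67, detected on 2 of 5 mdx arrays), and Nefl, Nefh, Prph, Chat, Slc18a3 and Snap25 were detected on 0 arrays. Of 7 tested hepatocyte markers 1 was lower, with means of 5.02 to 11.47 against 4.74 to 7.96. Of 8 tested endothelial and 2 tested erythroid markers none was called, and of 11 muscle fibre markers 2 were higher and 1 lower. With equal medians of the kept probes 7 of the 11 fibre markers were lower and 1 higher, where 2881 of all 8945 tested genes were lower and 1345 higher. When the 4 hepatocyte-rich arrays were dropped, the counts of these marker lists changed only for fibroblast markers, to 6 of 7 higher, and for fibre markers, to 1 higher and none lower. The part of these cell types in the Ache and Agrn results was not tested.

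The genes most like the called members across all 24 arrays were found by the root-mean-square difference between centred log2 profiles. For Ache, whose own SD over the arrays was 0.43, they were Tsc22d4 at 0.21 and Sypl2 at 0.22. For Agrn, with an SD of 0.29, they were Nfatc4 at 0.14 and Arhgef25 at 0.15. All 4 were higher in PBS-injected mdx than in wild-type muscle, by 0.76, 0.84, 0.64 and 0.40 in that order, which their choice by likeness to called members makes likely. They are given as a description.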

How the data were processed

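RNA of gastrocnemius muscle from 24 mice was measured on Illumina bead arrays. Per the labels' protocols, total RNA was extracted with Trizol from muscle powder, treated with DNase and amplified to biotin-labelled cRNA. The deposited table held an intensity per probe, neither background-corrected nor normalized, and, per the file headers, a detection p-value against negative controls, in steps that correspond to 798 controls. A deposited matrix of log2 values matched, to within 0.005, the quantile-normalized signals before any background correction. The software that made these files is not given in the sources used here.

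Intensities were background-corrected with normexp (offset 16, control levels inferred from detection p-values), quantile-normalized and put on the log2 scale with limma 3.58.1 in R 4.3.3. Probes with a detection p under 0.05 on at least 4 arrays were kept, which left 12623. Of 25697 probes 23978 had 1 symbol, 0 had several and 1719 had none, and 23962 were matched to a reference gene. The brightest probe on average represented its gene. One linear model with a mean for each of the 5 groups was fitted to all 24 arrays, with empirical Bayes moderation, two-sided tests, Benjamini-Hochberg adjustment over 8945 genes and a limit of 0.05, for 12 contrasts. Folds for genes undetected in a group were computed against the detection limit of its arrays and are written "at least". Replicates are separate mice as far as the labels say, and the number of arrays limits the precision. The fits were run on simulated data with independent noise. Those data held no structure shared between arrays, so they cannot show how such structure affects the fits.

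The members and gene lists were chosen with earlier results of these data known. Of each list, up to 3 genes per direction with the lowest p-values in PBS-injected mdx against wild type were named. Chrne, Chrnd, Col4a5 and the called Aqp4 were added after their values were seen. The other settings varied the background correction, scaling, probe filter, choice of probe, arrays in the fit, weights, covariates and block, and left out each array.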

Additional observations from a re-analysis of the deposited data

Results flagged for a closer look

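Of 30 sets of arrays, 6 genes in 5 groups, 1 held an array whose gap to its nearest neighbour exceeded the 95% critical value of Dixon's test, taken as a share of the range of the group. Dok7 read 5.94 in sActRIIB-Fc replicate 5, against 5.33 to 5.47 on the other 4 arrays of that group. The gap was 0.77 of that range. Chance alone marks about 1 in 20 such sets. The probe was dim on all arrays, and what set this array apart was not tested.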

How the results depend on the processing

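The settings were 13 other ways of processing, of which scaling to equal medians of the kept probes was chosen after seeing the data, and the removal of each array in turn. Recounting the gene lists under the scalings and without the 4 hepatocyte-rich arrays was also chosen after seeing the data. Against wild type, 2 of 6 members were called in each mdx group as reported, where 34.7% to 39.3% of all tested genes were called. For the combined treatment this became 1 when only the groups compared entered the fit and 1 with array weights, and ranged from 1 to 3 when single arrays were left out. Elsewhere the count against wild type was 2 or 3 under every setting, and among the mdx groups it was 0 under every setting. Between PBS-injected mdx and wild type, Ache ranged from 0.91 to 1.07 without single arrays and from 0.63 to 1.23 otherwise, and Agrn from 0.46 to 0.64 and from 0.44 to 0.70, always past the limit. Musk ranged from -0.55 to -0.19 and passed under 11 of 37 settings. Dok7 had no value when detection p under 0.01 on at least 12 arrays was required. Values were followed over the settings for 42 differences of the members. These were each mdx group against wild type, the combined treatment against PBS, and running and sActRIIB-Fc averaged. Among them no called difference turned its sign, and 29 values that missed the limit both ways did, the largest at 0.12. The interaction and the remaining mdx comparisons were not included. Scaling moved the whole array. The median over all genes, -0.05 as reported, was 0.07 with equal medians and -0.19 with equal medians of the kept probes, and higher genes made up 51.1%, 71.9% and 31.8% of those called. Relative to that median, Ache was 1.05, 1.16 and 1.16 and Agrn 0.60, 0.63 and 0.63.

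With the replicate numbers as a block, 3 members were called in PBS-injected mdx and 3 in combined-treatment mice against wild type, Musk being the addition at -0.50 in both (limma adjusted p = 0.025 and 0.023). No other count changed under the block. Deviations of the 46 same-numbered pairs correlated at -0.44 to 0.65 with a median of 0.12, 25 of them above 0.1, against a median of -0.05 and 44 of 184 above 0.1 for pairs of different number. Of 24 arrays 11 matched best with their own number. Raw median signals also went with the number, from 90.6 to 99 for the 5 arrays numbered 1 and from 72.3 to 84.8 for those numbered 4. The same-numbered arrays thus shared some structure, but not every pair did, and the labels do not say what the number marks. Colq and Dmd gave no level above background.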
